A study of Mus musculus with 8 samples.

Results

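Whole-liver messenger RNA of mice given a CMV-driven short hairpin RNA against Thbs2 was set against that of mice given the matching control vector. The comparison holds 4 of the 8 libraries of the series, namely AAV6-CMV-shThbs2 replicates 1 and 2 and AAV6-CMV-NC replicates 1 and 2. All 4 livers received an adeno-associated virus of serotype 6, and the vectors differ in the hairpin that the labels name, shThbs2 or NC. CMV is a viral promoter that is active in many cell types, so the vector is not restricted to 1 liver cell type by its promoter. Strain, age, dose and any liver injury are not given in the labels. Of 24662 features in the deposited table, 22036 carry an Ensembl identifier, and 10515 of these were tested because they averaged 1 FPKM or more across the 4 libraries. FPKM counts fragments scaled to transcript length and to library size. The series text speaks of separate mice, 2 per group. A limma p-value here sets the difference between groups against the spread between livers of a group, which is estimated in part from other genes.

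Thrombospondin-2 is a secreted matricellular protein that activated hepatic stellate cells produce when they lay down scar matrix. Hepatocytes make up most of the RNA of a liver. They secrete the plasma proteins, oxidise and synthesise lipids, conjugate drugs and steroids, and in male mice secrete the major urinary proteins, which carry pheromones. Many hepatocyte genes follow hormones, above all growth hormone, glucocorticoids and insulin, and stress on proteins or amino acid supply is read by separate programmes: the cytosolic heat shock response, the unfolded protein response of the endoplasmic reticulum and the integrated stress response.

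The libraries are those of liver. The 12 hepatocyte markers were all detected and summed to 70104 and 66735 FPKM in the shThbs2 livers, against 90105 and 89974 FPKM in the NC livers. All 3 adipose markers and 3 of 4 pancreas markers were listed at 0 in all 4 libraries. Depth is unknown, because the table holds no counts. The FPKM sums were 514641 and 503000 in the shThbs2 livers and 504227 and 491931 in the NC livers. The median absolute log2 difference between the libraries of a pair was 0.134 within shThbs2 and 0.194 within NC, and it lay between 0.170 and 0.20 for pairs across the groups. The control livers differed from each other about as much as from the shThbs2 livers. The 3 red cell markers summed to 471 and 202 FPKM in the shThbs2 livers and to 1908 and 325 FPKM in the NC livers. The high sum of control replicate 1 rests on its 2 globin genes, and the third marker, Alas2, a haem synthesis enzyme, was not highest there, with 36.0 and 32.3 FPKM in the shThbs2 livers and 34.9 and 16.1 FPKM in the NC livers.

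Thbs2 (chr17:14665500-14694235, minus strand, GRCm38) measured 0.695 and 0.614 FPKM in the shThbs2 livers and 1.27 and 0.922 FPKM in the NC livers. The groups did not overlap, and the mean was 40.4% lower with the hairpin. Thbs2 lies under the 1 FPKM filter. Without that filter its log2 change was −0.34 (SE 0.12, limma adjusted p = 0.551 over 15994 genes), and the exact two-sided permutation p was 0.333, the smallest that 2 livers against 2 allow. In bulk tissue, fewer cells of a type and less RNA per cell cannot be told apart. Log2 changes here are of FPKM + 1, shThbs2 minus NC, so they understate the change of a gene near 1 FPKM.

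Past an adjusted p of 0.05 stood 2 of the 10515 genes (0.019%), and both were higher with the hairpin. Limma was used with Benjamini-Hochberg adjustment over all genes tested. At an unadjusted p under 0.05, 592 genes (5.63%) were higher and 481 (4.57%) were lower. The groups did not overlap in 42.0% of genes, upward in 24.5% and downward in 17.5%, and 56.3% of genes had a change above 0, with a median change of 0.03. These shares are the background for the counts of families and pathways that follow. No gene passed when the filter was dropped, and 5 passed with the libraries scaled to the same FPKM sum, when Mup1, Cyp4a12b and Akr1c18 joined the pair. Apart from the 2 genes that passed, all genes named below missed the threshold, and their values describe these 4 livers.

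Angptl4 (chr17:33773750-33781830, minus strand) is a fasting-induced PPARα target whose secreted product inhibits lipoprotein lipase. It measured 46.6 and 42.4 FPKM in the shThbs2 livers and 9.70 and 10.8 FPKM in the NC livers. The groups lay far apart with little spread within either, and Angptl4 rose by 2.01 on the log2 scale (SE 0.14, limma adjusted p = 0.0198). Lpl, the lipase that Angptl4 inhibits, measured 24.7 and 21.6 FPKM in the shThbs2 livers and 60.5 and 56.9 FPKM in the NC livers. Its groups were separated in the opposite direction, with a log2 change of −1.31 (limma adjusted p = 0.0841). Angptl8, an insulin-responsive member of the same family, measured 76.5 and 53.7 FPKM against 192 and 188 FPKM in the NC livers (−1.55, limma adjusted p = 0.0881). Lipc, hepatic lipase, measured 50.7 and 55.3 FPKM against 30.3 and 22.5 FPKM in the NC livers (0.99, limma adjusted p = 0.181). Over all 24 lipoprotein and lipase genes, 8 were higher and 16 lower, with a median of −0.13.

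Mup15 (chr4:61435790-61439743, minus strand) is 1 of a cluster of major urinary protein genes on chromosome 4. It measured 78.5 and 51.2 FPKM in the shThbs2 livers and 0.334 and 0.261 FPKM in the NC livers, so it was under 1 FPKM in both controls. Mup15 passed the filter on the mean only through the shThbs2 livers. It rose by 5.63 on the log2 scale (SE 0.22, limma adjusted p = 0.00116). The Mup copies resemble each other closely, and reads can be shared out among them, so which copy a value belongs to is uncertain. The promoters of Mup15 and Mup3 are shown because their changes were the greatest and, after Mup20, the smallest of the family. Each line holds the 250 bases before the annotated start, 5′ to 3′ on the gene's strand, from the RefSeq table of GRCm38.p6, with the letters TATATAA, a form of the TATA box, in capitals.
Mup15 (chr4:61439705-61439954, minus strand): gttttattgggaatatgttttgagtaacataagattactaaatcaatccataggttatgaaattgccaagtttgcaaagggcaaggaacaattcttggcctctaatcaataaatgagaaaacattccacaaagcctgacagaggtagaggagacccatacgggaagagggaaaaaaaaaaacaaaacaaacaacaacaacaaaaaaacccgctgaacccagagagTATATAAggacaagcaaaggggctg
Mup3 (chr4:62087318-62087567, minus strand): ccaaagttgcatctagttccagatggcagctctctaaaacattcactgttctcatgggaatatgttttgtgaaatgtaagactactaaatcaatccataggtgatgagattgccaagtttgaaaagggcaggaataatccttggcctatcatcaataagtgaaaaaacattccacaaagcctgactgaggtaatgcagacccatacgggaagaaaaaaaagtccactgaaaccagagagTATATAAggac
Aligned end to end, the 300-base windows around the starts of Mup15 and Mup3 shared 253 bases, of which 221 were identical (87.4%). Mup17 shared 297 bases with Mup15, and all 297 were identical, although Mup17 measured 20.2 and 7.87 FPKM in the shThbs2 livers against 3.67 FPKM in 1 control and a listed 0 in the other. TATATAA on either strand was found in 10 of the 11 Mup windows in the table and in 3.46% of all 27025 windows. Between these letters and the annotated start lay 18 bases in Mup15 and 4 in Mup3. In Mup11 the letters overlapped the annotated start and in Mup14 they lay after it, so there they are a match to letters only.

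All 17 Mup genes tested, of 21 in the table, were higher in the shThbs2 livers. Mup15 and Mup6 (means of 5.63 FPKM in the shThbs2 and 0.741 FPKM in the NC livers) passed the filter only through the shThbs2 livers. Their upward direction therefore followed from the filter. Copies under the filter are not described. For 16 of the 17 the groups did not overlap, and 16 had an unadjusted p under 0.05. The median log2 change was 2.58, against 0.03 over all genes. The 2 most abundant copies had the smallest changes. Mup3 measured 2886 and 2083 FPKM in the shThbs2 livers and 1634 and 850 FPKM in the NC livers (1.06, limma adjusted p = 0.374). Mup20, darcin, the male pheromone protein, measured 2725 and 2169 FPKM against 1571 and 1208 FPKM in the NC livers (0.82, limma adjusted p = 0.259). Copies near 0 in a control had greater ones. Mup1 measured 25.2 and 17.6 FPKM against 1.79 and 0.386 FPKM in the NC livers (3.49, limma adjusted p = 0.0771), and Mup12 measured 462 and 82.7 FPKM against 15.3 and 0.687 FPKM (5.23, limma adjusted p = 0.275). Mup18 measured 329 and 303 FPKM against 47.9 FPKM and a listed 0 in the NC livers. The family made up 1.74% and 1.14% of the FPKM sum in the shThbs2 livers and 0.763% and 0.452% in the NC livers. Replicate 1 was the higher library for 17 of the 17 copies in the shThbs2 livers and for 16 of the 17 in the NC livers. Leaving out control replicate 2 gave a median of 1.56, and leaving out control replicate 1 gave 3.48.

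**Figure D1:**
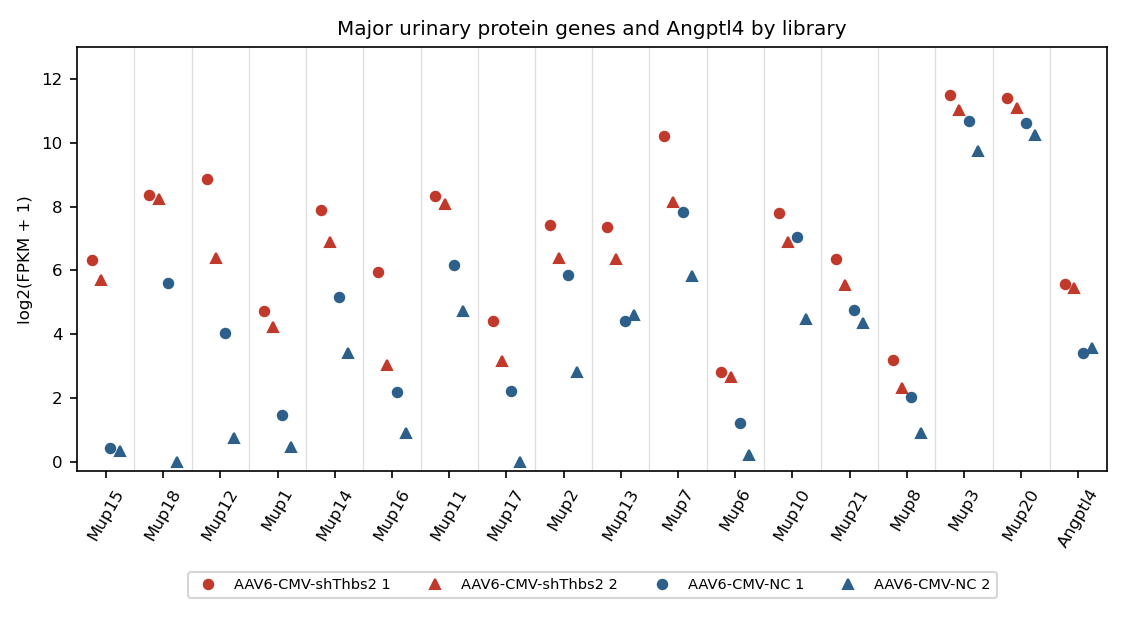
Each Mup gene tested, ordered by log2 change, and Angptl4 at the right, with 1 point per library on a log2(FPKM + 1) axis (red, AAV6-CMV-shThbs2; blue, AAV6-CMV-NC; circles, replicate 1; triangles, replicate 2). Mup15 and Angptl4 show the clearest gaps between groups relative to the spread within them, and Mup10 is the copy whose groups overlap.

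Other genes with sex-biased expression in mouse liver, a pattern set by the male and female rhythms of growth hormone, leaned the same way as the Mup genes. All 4 livers expressed Y-linked genes at like levels: Ddx3y measured 11.8 and 12.3 FPKM in the shThbs2 livers and 10.9 and 12.6 FPKM in the NC livers. Of 14 genes that are higher in male liver, 13 were higher with the hairpin, 11 without overlap, with a median change of 0.72. Elovl3, an elongase of very long fatty acids, measured 43.5 and 21.8 FPKM in the shThbs2 livers and 5.16 and 1.77 FPKM in the NC livers (2.95, limma adjusted p = 0.139). Cyp4a12b, a fatty acid hydroxylase with a close paralog, measured 8.60 and 7.80 FPKM against 1.81 and 1.23 FPKM in the NC livers (1.87, limma adjusted p = 0.0595). Neither pair of groups overlapped. Selenbp2 (1.17) and Cyp7b1, an oxysterol hydroxylase (1.59), were also higher, and Cib3 was the exception (−0.67, limma adjusted p = 0.499).

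Of 12 genes that are higher in female liver, 9 were lower with the hairpin, 8 of them without overlap, with a median change of −0.44. Prom1 (means of 0.563 FPKM in the shThbs2 and 2.45 FPKM in the NC livers) passed the filter only through the NC livers. The same held for Acot3 (0.500 and 1.92 FPKM), while Cyp3a16 passed only through the shThbs2 livers. The directions of Prom1, Acot3 and Cyp3a16 therefore followed from the filter. Cyp17a1, a steroid hydroxylase, measured 8.43 and 7.06 FPKM in the shThbs2 livers and 40.7 and 26.3 FPKM in the NC livers (−1.95, limma adjusted p = 0.0854). Abcd2, a peroxisomal fatty acid transporter, measured 3.34 and 3.96 FPKM against 7.85 and 11.4 FPKM in the NC livers (−1.17, limma adjusted p = 0.171). Cyp2b9 measured 2.32 and 1.08 FPKM against 5.38 and 24.9 FPKM in the NC livers, so its level in the controls rests mainly on replicate 2. The 3 other members had changes above 0, and their groups overlapped. Cyp3a41b measured 11.1 and 6.83 FPKM in the shThbs2 livers and 9.38 and 0 FPKM in the NC livers (1.59, limma adjusted p = 0.619). Cyp3a16 was listed at 0 except in shThbs2 replicate 2, with 6.69 FPKM (1.47, limma adjusted p = 0.597), and Akr1b7 had a change of 0.01. The sex-biased lists also ordered the libraries within each group. The male-biased median, as the deviation from each gene's mean on the log2 scale, was 0.57 and 0.23 in the shThbs2 livers and −0.15 and −0.67 in the NC livers, and the female-biased median was −0.55 and −0.17 in the shThbs2 livers and 0.10 and 0.55 in the NC livers. In each group, replicate 1 had the higher male-biased and the lower female-biased median. Mup20 is a member of the male-biased list and of the Mup family. The list of 15 growth hormone and IGF axis genes had a median of 0.14.

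The cytosolic heat shock proteins, chaperones that refold or hold damaged proteins in the cytosol, were higher almost without exception. Of 23 tested, 21 had a change above 0, 19 did not overlap upward, against 24.5% of all genes, and 9 had an unadjusted p under 0.05. The median change was 0.29. Hspb1 and Hspa1b are shown with their promoters because they had the smallest p of the list and carry a match to the heat shock element, a motif that reads the same on both strands. Each line holds the 250 bases before the start from the same RefSeq table, with GAANNTTC in capitals, where N is any base.
Hspb1 (chr5:135887669-135887918, plus strand): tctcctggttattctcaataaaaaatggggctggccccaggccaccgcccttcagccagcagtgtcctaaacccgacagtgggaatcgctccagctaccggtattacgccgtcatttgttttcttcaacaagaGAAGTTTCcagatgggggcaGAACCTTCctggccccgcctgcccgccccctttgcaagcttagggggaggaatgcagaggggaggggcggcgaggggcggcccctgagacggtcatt
Hspa1b (chr17:34959239-34959488, minus strand): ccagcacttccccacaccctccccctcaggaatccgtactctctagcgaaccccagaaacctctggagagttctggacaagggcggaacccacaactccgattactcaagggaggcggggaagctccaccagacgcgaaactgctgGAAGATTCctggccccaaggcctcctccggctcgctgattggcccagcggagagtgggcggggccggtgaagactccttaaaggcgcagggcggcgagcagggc
The element was found in 6 of the 18 heat shock genes with a window in the table, against 6.78% of all 27025 windows. The match is to letters and no binding was measured.

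Hspb1, a small heat shock protein, measured 43.9 and 31.7 FPKM in the shThbs2 livers and 9.48 and 13.2 FPKM in the NC livers (1.65, SE 0.22, limma adjusted p = 0.126). Hspa1b, an inducible Hsp70, measured 38.2 and 17.7 FPKM against 5.72 and 5.17 FPKM in the NC livers (2.07, SE 0.33, limma adjusted p = 0.139). Its near-identical neighbour Hspa1a measured 11.9 and 2.78 FPKM against 0.603 and 0.375 FPKM, and the split of reads between the 2 copies is uncertain. Hspa1a passed the filter only through the shThbs2 livers, so its upward direction followed from the filter. All 3 were separated between groups, with replicate 1 the higher shThbs2 library. Abundant constitutive chaperones had smaller changes. Hspa8 measured 892 and 711 FPKM against 523 and 532 FPKM in the NC livers (0.59, limma adjusted p = 0.289), and Hsp90ab1 measured 478 and 481 FPKM against 381 and 393 FPKM (0.31, limma adjusted p = 0.441). Hsf1, the transcription factor of the response, had a change of −0.04. The list median ranged from 0.19 without shThbs2 replicate 1 to 0.37 without shThbs2 replicate 2.

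Of the other stress programmes, the integrated stress response leaned upward like the heat shock genes, and the unfolded protein response did not. The unfolded protein response of the endoplasmic reticulum had a median change of −0.02 over 26 genes, 13 higher and 13 lower, and the list's median deviation was 0.05 and −0.07 in the shThbs2 livers and −0.31 and 0.32 in the NC livers, so the controls lay on either side of the shThbs2 livers. Hspa5, the BiP chaperone, measured 818 and 655 FPKM in the shThbs2 livers and 541 and 987 FPKM in the NC livers, and Pdia4 measured 142 and 133 FPKM against 142 and 240 FPKM. Control replicate 2 was the high library for both. Herpud1, which serves degradation of proteins from the endoplasmic reticulum, stood apart from the list: it measured 345 and 308 FPKM in the shThbs2 livers and 152 and 149 FPKM in the NC livers (1.11, SE 0.12, limma adjusted p = 0.0854).

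Of 20 integrated stress response genes, which follow the transcription factor ATF4, 17 were higher and 9 of these did not overlap, with a median change of 0.50. Cebpb, a transcription factor of the liver stress and hormone response, measured 127 and 144 FPKM in the shThbs2 livers and 73.4 and 63.9 FPKM in the NC livers (0.97, limma adjusted p = 0.126). Ddit4, an inhibitor of mTORC1, measured 30.2 and 33.8 FPKM against 12 and 17.8 FPKM in the NC livers (1.07, limma adjusted p = 0.213), and the hormone gene Fgf21 measured 46.5 and 19.9 FPKM against 9.81 and 9.96 FPKM (1.53, limma adjusted p = 0.281). The 3 genes were separated between groups. The 3 lower members all serve serine metabolism or transport: Slc1a4, a serine and alanine transporter, measured 3.31 and 2.85 FPKM against 8.53 and 8.40 FPKM in the NC livers (−1.22, limma adjusted p = 0.0881), and the synthesis enzymes Phgdh (−0.51) and Psph (−0.52) were also lower. Atf4 itself measured 78.7 and 55.3 FPKM against 41.3 and 62.7 FPKM in the NC livers, and its groups overlapped. The list median rests on single libraries: it was 0.26 without shThbs2 replicate 1, 0.27 without control replicate 1 and 0.75 without either other library. Of 20 p53 targets 16 were higher, with a median of 0.29. Cdkn1a, the cell cycle inhibitor p21, measured 67.6 and 57.4 FPKM against 26.8 and 34.7 FPKM in the NC livers (1.01, limma adjusted p = 0.171).

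Of 15 glucocorticoid-responsive genes, several of them also induced by fasting, 12 were above 0, 6 of these without overlap, with a median of 0.56. Pck1, the rate-limiting enzyme of gluconeogenesis, measured 580 and 696 FPKM in the shThbs2 livers and 307 and 376 FPKM in the NC livers (0.90, limma adjusted p = 0.181). Tat, tyrosine aminotransferase, measured 1041 and 1074 FPKM against 622 and 702 FPKM in the NC livers (0.68, limma adjusted p = 0.189). Igfbp1, a binding protein of insulin-like growth factor, measured 465 and 323 FPKM against 132 and 214 FPKM in the NC livers (1.2, limma adjusted p = 0.279). All 3 were separated between groups. Lcn2, a member of this list and of the acute phase list, had the smallest p and the lowest change of the 15, against the direction of the median (−1.27, limma adjusted p = 0.0854). The glucocorticoid receptor gene Nr3c1 had a change of 0.00 and the target Fkbp5 one of −0.20. Without shThbs2 replicate 2 the list median was 0.37. Among 9 plasma carriers of hormones and vitamins 3 were higher and 6 lower (median −0.13). Serpina7, a carrier of thyroid hormone, measured 163 and 167 FPKM against 34.8 and 59.8 FPKM in the NC livers (1.83, limma adjusted p = 0.126), and Serpina6, the carrier of corticosterone, measured 182 and 215 FPKM against 114 and 95.5 FPKM (0.92, limma adjusted p = 0.158). Ttr, another carrier of thyroid hormone, measured 3254 and 3289 FPKM in the shThbs2 livers and 3915 and 3294 FPKM in the NC livers (−0.13, limma adjusted p = 0.760).

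The acute phase genes, plasma proteins that the liver makes in inflammation, split within the list. Saa1, serum amyloid A, measured 345 and 572 FPKM in the shThbs2 livers and 116 and 53.1 FPKM in the NC livers (2.48, limma adjusted p = 0.139), and its paralog Saa2 measured 139 and 373 FPKM against 38.2 and 16.9 FPKM (3.11, limma adjusted p = 0.171). Lcn2, an iron-scavenging protein that liver injury induces, measured 108 and 134 FPKM against 282 and 301 FPKM in the NC livers (−1.27, limma adjusted p = 0.0854). All 3 were separated between groups, and the list of 28 had a median of 0.07.

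Lipid genes divided by role. Of 45 genes of fatty acid oxidation and PPARα targets, 35 were higher and 19 of them did not overlap, with a median of 0.16. Besides Angptl4, Acaa1b, a peroxisomal thiolase, measured 360 and 353 FPKM in the shThbs2 livers and 200 and 154 FPKM in the NC livers (1.02, limma adjusted p = 0.139). Crot (0.64) and Slc27a2 (0.55), which act on peroxisomal and very long chain fatty acids, were separated upward as well. Of the 10 lower members of this list 4 did not overlap, and the lowest change was −0.92. Without control replicate 2 the median was 0.28. Of 27 genes of fatty acid and triglyceride synthesis 16 were lower, 13 of them without overlap, with a median of −0.16. Srebf1, the lipogenic transcription factor, measured 26.9 and 35.1 FPKM against 68.2 and 74.1 FPKM in the NC livers (−1.18, limma adjusted p = 0.126), and Scd2, a desaturase, 2.22 and 2.78 FPKM against 7.63 and 6.72 FPKM (−1.23, limma adjusted p = 0.115). Lpin1, a phosphatidate phosphatase that also acts in the nucleus as a coactivator, was an exception, with 43.8 and 20.6 FPKM in the shThbs2 livers and 8.24 and 4.76 FPKM in the NC livers (2.09, limma adjusted p = 0.194), as was Me1, malic enzyme (0.56, limma adjusted p = 0.289). Without control replicate 1 the list median was −0.08.

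Of 26 genes of cholesterol synthesis and uptake, most of them targets of SREBP2, 21 were lower and 14 of these did not overlap, against 17.5% of all genes. The median was −0.31. Dhcr7, the last enzyme of cholesterol synthesis, measured 33.4 and 34.5 FPKM in the shThbs2 livers and 64.6 and 79.7 FPKM in the NC livers (−1.06, limma adjusted p = 0.126). Sqle (−0.36) and Mvk (−0.48), enzymes of the same pathway, were lower without overlap. Without control replicate 2 the list median was −0.12.

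The cytosolic ribosomal proteins were higher with a single exception. Of 80 tested, 79 were higher, and the groups of 65 (background 24.5%) did not overlap. An unadjusted p under 0.05 was reached by 28 of them, all upward (background 5.63%). The changes were small, with a median of 0.27, and Rpl3 was the exception at −0.01 (0.0044 with the libraries scaled to the same sum outside mitochondrial and Mup genes). Rpl13a measured 557 and 524 FPKM in the shThbs2 livers and 391 and 400 FPKM in the NC livers (0.45, limma adjusted p = 0.297). Rplp0, part of the stalk of the large subunit, measured 515 and 554 FPKM against 356 and 429 FPKM in the NC livers (0.45, limma adjusted p = 0.381). Both were higher in both shThbs2 livers than in either control. Rps27 had the greatest change of the family, with 102 and 115 FPKM against 17.3 and 45.9 FPKM in the NC livers (1.90, limma adjusted p = 0.258), and its controls differed widely from each other. The family median stayed between 0.24 and 0.29 when any 1 library was left out, and it was 0.16 after quantile normalization.

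Ribosomal protein transcripts begin with a pyrimidine tract that places their translation under mTORC1. The starts of 4 family members with such a tract are shown, chosen among those with a small p in the table. Each line holds 15 bases on either side of the annotated start from the RefSeq table of GRCm38.p6, 5′ to 3′, with the tract in capitals.
Rps27 (chr3:90213634-90213663, minus strand): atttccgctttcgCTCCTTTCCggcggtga
Rpl13a (chr7:45128731-45128760, minus strand): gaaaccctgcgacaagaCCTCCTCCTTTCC
Rpl38 (chr11:114668565-114668594, plus strand): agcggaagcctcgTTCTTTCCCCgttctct
Rpl12 (chr2:32961697-32961726, plus strand): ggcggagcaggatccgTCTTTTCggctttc
A tract of at least 6 pyrimidines that reaches within 5 bases of the annotated start was found in 29 of the 60 ribosomal protein genes with a window (48.3%). It was found in 18 of 69 mitochondrial ribosomal protein genes (26.1%) and in 20.5% of the 8354 tested genes with a window. Only the gene's own strand was searched, since the tract is a feature of the transcript. Among the starts shown, the tract spans the annotated start in Rps27 and Rpl38 and lies after it in Rpl13a and Rpl12.

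Several families of nuclear genes for mitochondria were mostly higher, with smaller medians. Of 78 mitochondrial ribosomal proteins 69 were higher (median 0.16), of 36 nuclear subunits of respiratory complex I 32 (median 0.14), and of 11 nuclear subunits of cytochrome oxidase 11 (median 0.14). The share without overlap was 38 of 78, 22 of 36 and 8 of 11. Complexes II and III followed with 10 of 13 higher (median 0.13), but 0 of these genes had an unadjusted p under 0.05 in limma. The ATP synthase subunits were near the background, with 13 of 17 higher, 4 of them without overlap, a median of 0.06 and 0 at an unadjusted p under 0.05 in limma. The 13 transcripts of the mitochondrial genome were all above 0, 10 without overlap, with a median of 0.21 (0.32 without shThbs2 replicate 1). For mt-Nd4, a complex I subunit, the values were 5620 and 5748 FPKM in the shThbs2 livers and 4434 and 4484 FPKM in the NC livers (0.35, limma adjusted p = 0.376). At the other end mt-Nd5, another subunit, measured 3540 and 3500 FPKM against 3145 and 3860 FPKM in the NC livers and overlapped. Its change of 0.01 was below 0 with libraries scaled to the same sum (−0.016), median centred (−0.012) or quantile normalized (−0.051). Mitochondrial transcripts took 14.8% and 15.8% of the FPKM sum in the shThbs2 livers and 13.3% and 13.9% in the NC livers. Proteasome subunits (32 of 37 higher, 15 without overlap, median 0.12) and translation initiation factors (39 of 53, 19 without overlap, median 0.15) leaned the same way. The 7 subunits of the CCT chaperonin were all above 0 (median 0.16). Only 2 of them did not overlap, and this share of 28.6% was near the background of 24.5%. Of the proteasome and CCT genes, 0 had an unadjusted p under 0.05 in limma. Splicing factors did not lean upward (17 of 51, median −0.04). Of 18 histone genes 12 were higher, with a median of 0.38. Hist2h2aa1 measured 93.2 and 78.5 FPKM against 45.3 and 30.7 FPKM in the NC livers (1.18, limma adjusted p = 0.186), but replication-dependent histones lack poly(A) tails and have near-identical copies, so these values are uncertain in poly(A)-selected RNA.

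**Figure D2:**
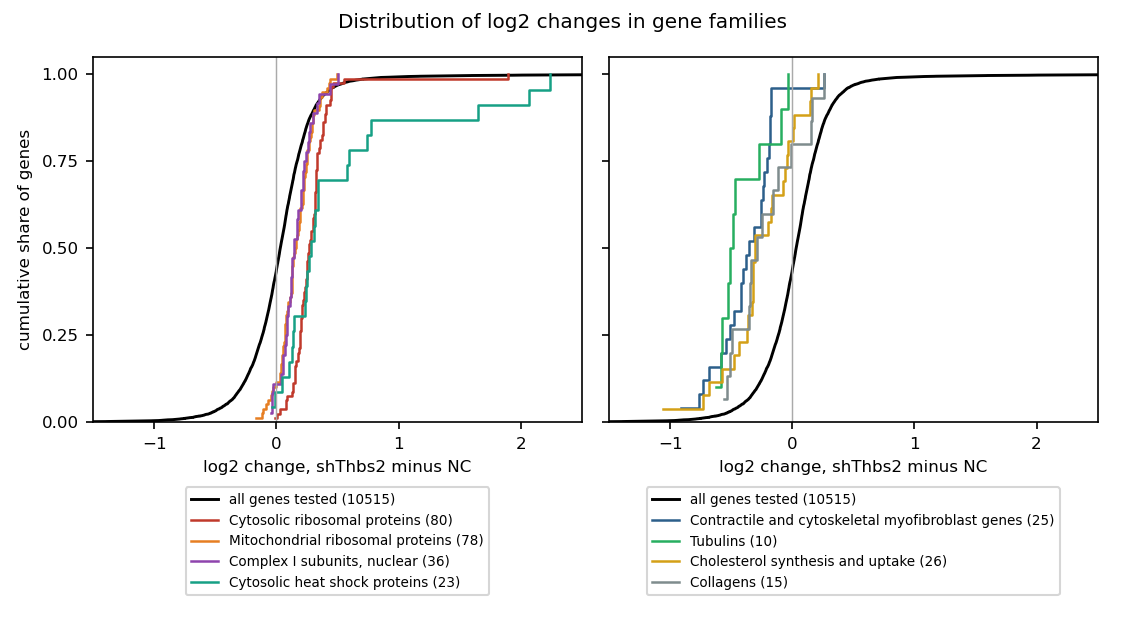
Cumulative share of genes (vertical axis) at or below each log2 change, shThbs2 minus NC (horizontal axis), for families that were higher (left) and lower (right) with the hairpin, with all 10515 genes tested in black. The curve of the 80 cytosolic ribosomal proteins is steep and lies right of 0 apart from Rpl3, whereas the heat shock curve has a long tail of members with large changes.

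The median change differed between classes of abundance. The 6358 genes with a mean of 1 to 10 FPKM had a median change of 0.00, and 3181 of them were higher. The median was 0.08 for the 3551 genes of 10 to 100 FPKM, of which 2316 were higher, 0.12 for the 547 of 100 to 1000 FPKM, of which 382 were higher, and 0.09 for the 59 of 1000 FPKM or more, of which 39 were higher. Short genes leaned the same way: the median was 0.14 for the 260 genes with up to 1000 exonic bases, 0.08 for 1213 genes of 1000 to 2000, 0.05 for 3309 genes of 2000 to 4000 and 0.01 for 5732 longer ones. Ribosomal protein genes are short and abundant, with a median of 1806 exonic bases and 166 FPKM. Among all genes of 1000 to 2000 bases and 100 to 1000 FPKM the median was 0.16, and 0.10 without the ribosomal and respiratory chain families. Both lie below the 0.27 of the ribosomal proteins, and the part of length and abundance in that value was not tested. Quantile normalization, which sets all libraries to 1 distribution, brought the medians of the upper 3 classes to between 0.00 and 0.02.

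**Figure D3:**
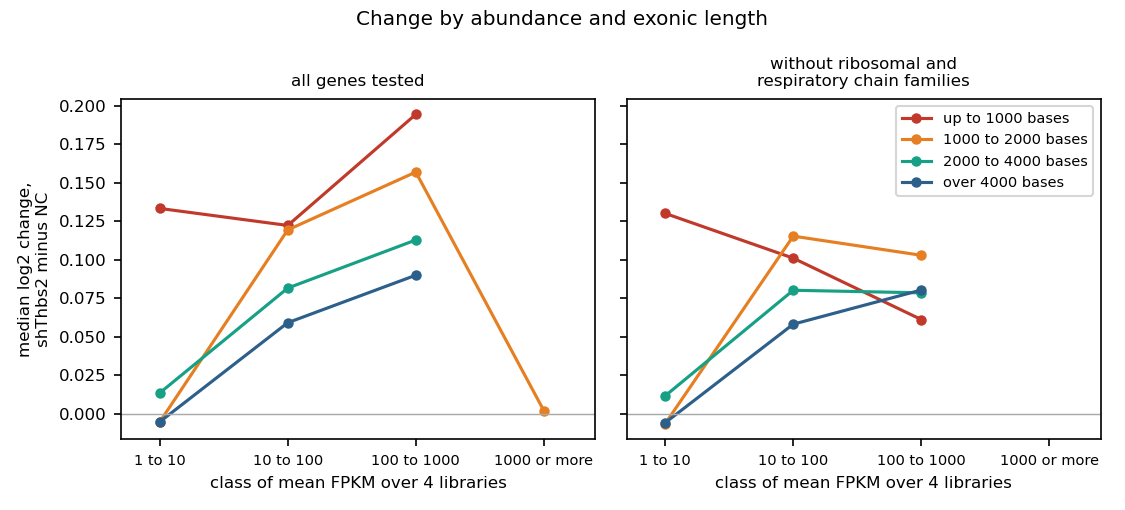
Median log2 change, shThbs2 minus NC, by class of mean FPKM, for 4 classes of exonic length, over all genes tested (left) and without the ribosomal and respiratory chain families (right); classes with fewer than 20 genes are not drawn. Medians of genes over 1000 bases sit near 0 at 1 to 10 FPKM and above 0 at 10 to 1000 FPKM in both panels.

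The gene with the greatest difference in FPKM was lower with the hairpin. Alb, serum albumin, measured 35580 and 33418 FPKM in the shThbs2 livers and 49852 and 50033 FPKM in the NC livers (−0.53, SE 0.10, limma adjusted p = 0.235). It took 6.91% and 6.64% of the FPKM sum in the shThbs2 livers, against 9.89% and 10.2% in the NC livers. Trf, transferrin, measured 7294 and 7697 FPKM against 11248 and 10033 FPKM in the NC livers (−0.50, limma adjusted p = 0.281). Neither overlapped between groups. Apoa1, the main protein of high density lipoprotein, measured 5214 and 3382 FPKM against 6230 and 6356 FPKM in the NC livers (−0.58, limma adjusted p = 0.435), while Apoa2, another protein of that particle, measured 4180 and 4283 FPKM against 3478 and 2889 FPKM (0.42, limma adjusted p = 0.387). FPKM are shares of a library, so a lower share of Alb leaves more of the total for other genes. How far that enters the small upward medians was not tested.

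Detoxifying families leaned in opposite directions. The 7 mu-class glutathione transferases were all below 0, 5 of them without overlap, with a median of −0.40. Gstm3 measured 99.0 and 115 FPKM in the shThbs2 livers and 494 and 304 FPKM in the NC livers (−1.85, limma adjusted p = 0.115), Gstm2 60.9 and 62.4 FPKM against 130 and 106 FPKM (−0.92, limma adjusted p = 0.139), and Gstm1, the most abundant, 1064 and 1007 FPKM against 2083 and 1557 FPKM (−0.80, limma adjusted p = 0.251). These 3 were separated. Gstm6 measured 66.6 and 57.3 FPKM against 64.4 and 61.3 FPKM in the NC livers, and its groups overlapped. Of 16 glucuronosyltransferases, which attach glucuronic acid to bilirubin, steroids and drugs, 12 were higher and 8 of these did not overlap (median 0.25). Ugt1a1, the bilirubin-conjugating enzyme, measured 210 and 229 FPKM against 159 and 143 FPKM in the NC livers (0.54, limma adjusted p = 0.282). Cyp2a5, a coumarin hydroxylase with close paralogs, measured 64.4 and 51.0 FPKM against 11.6 and 17.2 FPKM in the NC livers (1.95, limma adjusted p = 0.0854). Its paralog Cyp2a4 measured 23.5 and 22.8 FPKM against 4.45 and 44.7 FPKM in the NC livers and overlapped, so the split of reads between these copies is uncertain. Of the other paralogs tested, Cyp2a22 overlapped (0.36) and Cyp2a12 was lower (−0.20).

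Steroid and retinoid enzymes included genes with large differences in both directions. Akr1c18, an enzyme of progesterone breakdown, measured 0.575 and 1.87 FPKM in the shThbs2 livers and 17.2 and 22.6 FPKM in the NC livers (−3.29, SE 0.30, limma adjusted p = 0.0595). Rdh9, a retinol and steroid dehydrogenase, measured 5.79 and 7.20 FPKM against 22.7 and 38.7 FPKM in the NC livers (−2.04, limma adjusted p = 0.115). Srd5a1, a steroid reductase, measured 22.8 and 23.5 FPKM against 14.3 and 10.9 FPKM in the NC livers (0.84, limma adjusted p = 0.235). Of the 27 in the list 17 were lower, with a median of −0.03.

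Genes of matrix and of the contractile cytoskeleton were mostly lower. Of 25 contractile and cytoskeletal genes of myofibroblasts 24 were lower, 18 without overlap (background 17.5%), with a median of −0.36 and Zyx as the exception (0.26). Without control replicate 2 that median was −0.22. Acta2, smooth muscle actin, measured 2.16 and 1.69 FPKM in the shThbs2 livers and 3.66 and 5.43 FPKM in the NC livers (−0.91, limma adjusted p = 0.275). Of 15 collagens 12 were lower, 9 without overlap, with a median of −0.29. Among the fibrillar chains, Col1a1 measured 8.42 and 6.05 FPKM against 10.1 and 11.2 FPKM in the NC livers, and Col3a1 measured 15.5 and 13.9 FPKM against 21.1 and 22.2 FPKM. The most abundant collagen was not a fibrillar one: Col18a1, a basement membrane collagen that hepatocytes make, measured 174 and 188 FPKM against 162 and 163 FPKM in the NC livers (0.15, limma adjusted p = 0.694), higher in both shThbs2 livers. Of 23 matrix glycoproteins and proteoglycans 19 were lower (median −0.36), led by Nid1, a basement membrane linker, with 3.24 and 3.68 FPKM against 9.50 and 18.0 FPKM in the NC livers (−1.67, limma adjusted p = 0.166). Loxl4, a collagen crosslinking enzyme, measured 0.854 and 1.89 FPKM against 3.67 and 6.40 FPKM in the NC livers (−1.35, limma adjusted p = 0.269). In the fixed set of fibrosis genes, Col1a2 (−0.50), Des (−0.31) and Pdgfrb (−0.22) were also lower without overlap. Tgfb1 was nearly level, with 4.69 and 4.62 FPKM against 4.83 and 4.81 FPKM in the NC livers (−0.04, limma adjusted p = 0.944). Timp1, which lies under the filter, measured 0.648 and 0.420 FPKM against 0.835 and 1.16 FPKM in the NC livers.

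All 10 tubulins, the subunits of microtubules, were below 0, and 7 did not overlap, with a median of −0.50. Tuba1b measured 58.7 and 62.3 FPKM in the shThbs2 livers and 90.2 and 84.9 FPKM in the NC livers (−0.53, limma adjusted p = 0.281), and Tuba1a measured 10.9 and 10.5 FPKM against 15.7 and 17.6 FPKM (−0.59, limma adjusted p = 0.281). Tubb4b, at 157 and 166 FPKM against 174 and 169 FPKM in the NC livers, had the smallest change among those that did not overlap (−0.09). Annexins (8 of 9 lower, median −0.25) and claudins (5 of 6 lower, median −0.38) leaned the same way. Without control replicate 2 the tubulin median was −0.25 and the claudin median −0.16. The 8 stellate cell markers summed to 37.2 and 37.6 FPKM in the shThbs2 livers and 51.3 and 41.9 FPKM in the NC livers, with none at 0. The higher sum of control replicate 2 rests mainly on Reln, with 2.23 and 2.51 FPKM against 3.87 and 6.72 FPKM in the NC livers. Reln, Pdgfra and Pdgfrb did not overlap between groups, and the other members did. Colec11 and Rgs5, the most abundant members, were lowest in control replicate 2. The part of cell number in these values was not tested.

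Of 19 myeloid markers (monocyte, neutrophil, scar macrophage) 15 were lower, 7 without overlap, with a median of −0.54. Spp1, osteopontin, measured 41.1 and 48.0 FPKM in the shThbs2 livers and 62.9 and 90.6 FPKM in the NC livers (−0.75, limma adjusted p = 0.322), and Ccr2, the receptor of recruited monocytes, measured 0.712 and 0.934 FPKM against 1.83 and 1.61 FPKM (−0.58, limma adjusted p = 0.327). Ccr2 passed the filter only through the NC livers, as did Chil3 of the same list (means of 0.543 FPKM in the shThbs2 and 1.97 FPKM in the NC livers). The lower direction of Ccr2 and Chil3 therefore followed from the filter. Spp1 is also in the list of cholangiocyte markers, of which all 7 tested were lower, 4 without overlap, with a median of −0.20. For Spp1 the high library was control replicate 2. Over the list of myeloid markers, control replicate 1 was the high library: the list's median deviation was −0.09 and −0.26 in the shThbs2 livers and 0.46 and −0.09 in the NC livers, so replicate 2 of the controls lay among the shThbs2 livers. Dropping control replicate 1 gave a median of −0.19, and dropping shThbs2 replicate 2 gave −0.25. Control replicate 1 also had the high globin values described above, whose part in this value was not tested. The 16 Kupffer cell markers had a median of −0.05, with control replicates at 0.36 and −0.36. Cxcl13, a B cell chemokine, measured 11.8 and 14 FPKM against 0.676 and 2.88 FPKM in the NC livers (2.44, limma adjusted p = 0.139).

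Cell cycle and immediate early genes were mostly lower in these samples. Of 33 cell cycle genes 27 were lower (median −0.23, and −0.12 without control replicate 2), with Mki67, a marker of cycling cells, at 3.47 and 4.32 FPKM in the shThbs2 livers and 6.51 and 7.03 FPKM in the NC livers (−0.67, limma adjusted p = 0.281). Cdk1, the mitotic kinase, was higher instead, at 4.93 and 6.22 FPKM against 3.72 and 3.98 FPKM in the NC livers (0.43, limma adjusted p = 0.442). Of 22 immediate early genes, which are switched on within minutes of a stimulus, 18 were lower (median −0.25). Egr1 measured 3.80 and 2.59 FPKM against 14.7 and 23.6 FPKM in the NC livers (−2.24, limma adjusted p = 0.0854). Inhba, the activin A subunit, measured 2.22 and 1.34 FPKM against 5.09 and 5.87 FPKM in the NC livers (−1.24, limma adjusted p = 0.139), while the list of 20 TGF-β and activin genes had a median of −0.08.

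Several programmes had medians close to 0. These were the circadian clock (18 genes, 0.02), TLR4 and NF-κB signalling (30 genes, 0.01), interferon-stimulated genes (36 genes, −0.06), complement (28 genes, 0.03), the Hippo pathway (14 genes, 0.02), antigen-presenting MHC genes (19 genes, 0.02), and liver transcription factors and nuclear receptors (31 genes, −0.02). A median near 0 does not show that single members were alike in both groups.

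**Figure D4:**
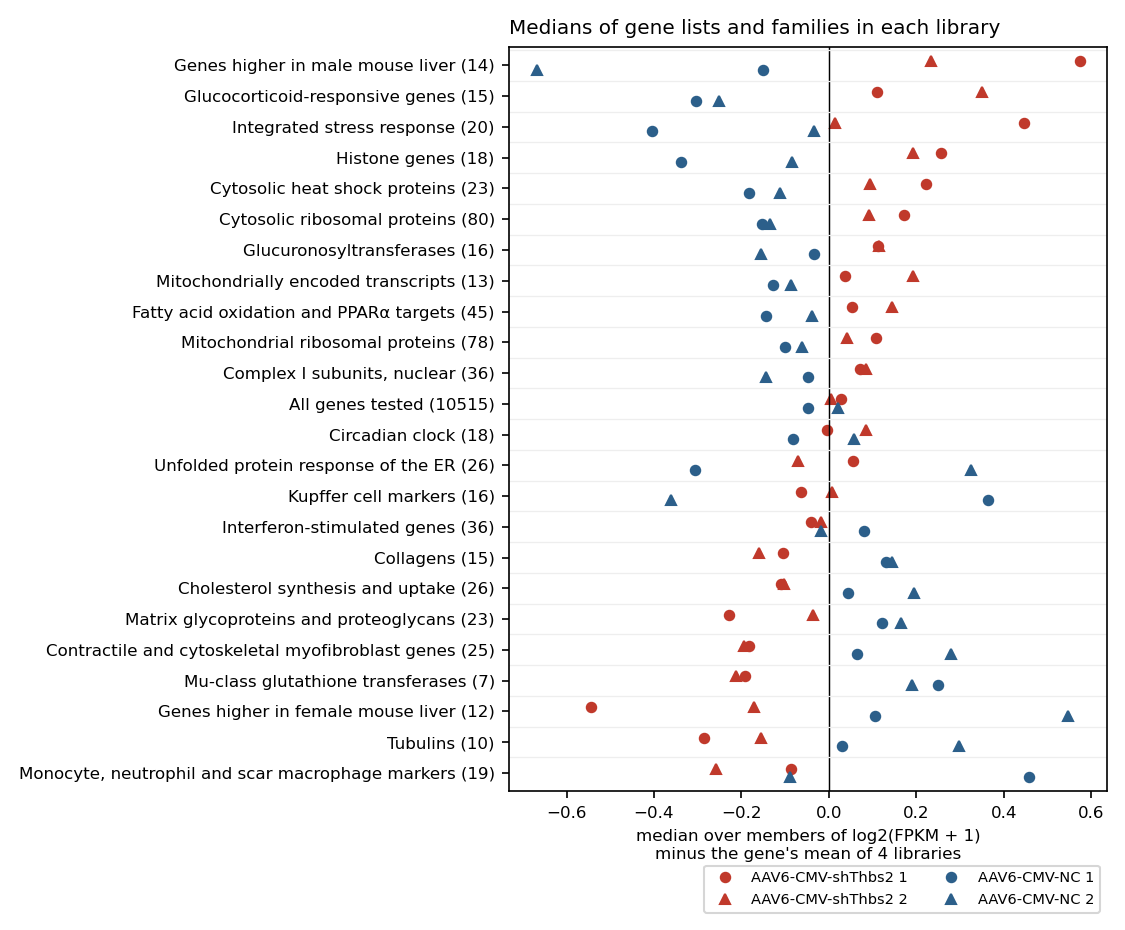
For each list or family (genes tested in parentheses), the median over its members of log2(FPKM + 1) minus the gene's mean of the 4 libraries, with 1 point per library; red, AAV6-CMV-shThbs2; blue, AAV6-CMV-NC; circles, replicate 1; triangles, replicate 2. The groups separate for the ribosomal, heat shock, collagen and mu-class transferase rows with little spread inside a group, while the unfolded protein response and Kupffer rows differ more between the controls than between the groups.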

How the data were processed

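Poly(A) RNA of whole liver was made into libraries with a NEBNext Ultra kit and sequenced on a HiSeq2500, per the labels' protocols. The deposited table gives FPKM per gene, made by the authors with HISAT and Cufflinks named among the tools and GRCm38 as the build, per the submitters' processing notes, which also name HISAT2 2.1.0 and Bowtie2 2.3.5 for the series without saying for which libraries. It holds no counts, so depth is unknown and no counting interval can be given. Of its features, 2626 carry no Ensembl identifier and were not tested, and 27 symbols turned into dates were restored from their identifiers.

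From these values log2(FPKM + 1) was computed, genes with a mean under 1 FPKM were left out, and 2 livers were compared with 2 in limma 3.58.1 (R 4.3.3), with an intensity trend, no covariate and Benjamini-Hochberg adjustment over 10515 genes. The steps were tested on simulated data. Lists and families are described by counts and medians without a test. The counts include members with a mean under 1 FPKM in 1 group, which passed the filter only through the other group. The direction of such members followed from the filter. The members and lists were chosen with earlier results of these data known. Genes named are those past the threshold, the 12 with the smallest p in each direction, up to 6 members with the smallest p of each list, any member of a family of at most 12, 5 members of each abundance class, the 12 most abundant genes and a fixed set of fibrosis genes. A further 24 genes outside this rule, among them Hspa5, Atf4, Rpl3, Col18a1, Inhba and several Mup copies, were chosen after their values were seen. Alternatives were another pseudocount, other filters, rows without an Ensembl identifier, 4 scalings, 2 variance models, a replicate block and each library left out in turn. Promoter windows came from the RefSeq table of GRCm38.p6. Fragments of near-identical genes (Mup, Cyp2a, Cyp4a12, Gstm, Saa, histone and Hspa1 copies) may be split wrongly by the authors' quantification, and the sources do not say whether strand was used.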

Additional observations from a re-analysis of the deposited data

How the results depend on the processing

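The 2 genes past the threshold, Mup15 and Angptl4, passed in every alternative except the one without a filter on low values, where 0 of 15994 genes passed (limma adjusted p = 0.0863 for Mup15 and 0.182 for Angptl4). The count was 5 with the same FPKM sum, with or without mitochondrial and Mup genes in that sum. It ranged from 10 to 226 when 1 library was left out, with 10 without shThbs2 replicate 1, 25 without shThbs2 replicate 2, 226 without control replicate 1 and 207 without control replicate 2, where the lone library of a group is assumed to vary like the other group. Genes at an unadjusted p under 0.05 then numbered 229 to 1084 upward and 263 to 781 downward, and 245 were lower with a mean of at least 5 FPKM. With the replicate number as a block 44 genes passed, 28 higher and 16 lower. Same-numbered libraries deviated together with a correlation of 0.0578 over 2 pairs, so the numbers were not taken as a pairing. Thbs2 stayed between −0.65 and −0.22 in all alternatives.

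Among the medians of the lists, quantile normalization gave 0.21 for heat shock proteins, −0.50 for mu-class transferases and 0.16 for ribosomal proteins, and it gave 0.0041, 0.0095 and 0.016 for the 3 upper abundance classes, which follows from setting all libraries to 1 distribution. The 100 to 1000 FPKM class had 0.091 with the same FPKM sum. A mean of at least 5 FPKM gave −0.77 for female-biased genes and −0.34 for collagens, and a pseudocount of 0.1 gave −0.35 for collagens. With 1 library left out, the range was −0.32 to −0.12 for cholesterol genes, 0.19 to 0.37 for heat shock proteins, 0.37 to 0.67 for glucocorticoid-responsive genes, −0.41 to −0.24 for matrix glycoproteins, −0.49 to −0.22 for contractile genes, −0.65 to −0.19 for myeloid markers and 1.56 to 3.48 for Mup genes. It was −0.45 to −0.36 for mu-class transferases, −0.34 to −0.23 for collagens, −0.56 to −0.25 for tubulins, 0.17 to 0.32 for mitochondrial transcripts, −0.051 to 0.041 for genes of 1 to 10 FPKM, 0.037 to 0.10 for genes of 10 to 100 FPKM, 0.1 to 0.15 for genes of 100 to 1000 FPKM and 0.071 to 0.14 for genes of 1000 FPKM or more.

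Changes close to 0 turned sign in 7 genes. The values were −0.025 for Ddx3y with quantile normalization, −0.028, −0.025 and −0.084 for Hspa5 and −0.025, −0.025 and −0.042 for Nr3c1 with the same sum, median centring and quantile normalization, −0.016, −0.012 and −0.051 for mt-Nd5 in the same order, and 0.0044 for Rpl3 with the same sum outside mitochondrial and Mup genes. With 1 library left out, the range was −0.063 to 0.13 for Ddx3y, −0.13 to 0.054 for Hsf1, −0.43 to 0.44 for Hspa5, −0.050 to 0.055 for Nr3c1, −0.11 to 0.092 for Rpl3, −0.13 to 0.16 for mt-Nd5 and −0.13 to 0.083 for Gstm6. The Alas2 change of 0.50 ranged from −0.0315 without control replicate 2 to 1.04 without control replicate 1. Of 64 medians recomputed, 8 changed sign under other settings and 12 with 1 library left out. The cause of these differences was not tested.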

Other observations

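Some genes differed widely between the 2 livers of a group. Of 6932 genes that reached 5 FPKM in at least 1 library, 15 had 1 library under 10% of the other within a group, in 18 pairs of a gene and a group, and in 12 of these pairs another annotated gene overlaps on the same strand. Apoc2, an activator of lipoprotein lipase, measured 7.31 and 186 FPKM in the shThbs2 livers and 253 and 321 FPKM in the NC livers, and Gm44805 overlaps it. Reads of Dpm1, a mannose-phosphate synthase subunit, gave 17.7 and 1.53 FPKM in the shThbs2 livers and 13.3 and 1.25 FPKM in the NC livers, so replicate 2 was the low library in both groups. Mup12 and Mup18 are also among the 15 genes. The part of read assignment between overlapping models in these values was not tested.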
